A study of Drosophila melanogaster with 12 samples.

Results

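The niche of the ovarian germline stem cells was compared between its anterior cells and its escort cells in old females. Terminal filament cells and cap cells together (TFCs-CpCs) were set against escort cells (ECs), both taken from 4 weeks (4w) old Drosophila melanogaster ovaries. The comparison was formed from the cell type and age in the sample labels and holds 4 of the 12 RNA-seq libraries of the series, 2 of TFCs-CpCs and 2 of ECs. The question was which differences in gene expression separate both kinds of niche cells once the ovary is old. TFCs-CpCs came from bab1-Gal4/UASp-tau::mGFP6 females, in which bab1-Gal4 drove a Tau::GFP fusion at high levels in TFCs-CpCs and at lower ones in ECs, and the brightest cells were sorted. ECs came from females that carried the chromosomes y w lexAop-mCD8::GFP over w and ptc-LexA over a wild-type one (+), in which a ptc enhancer fragment drove a membrane GFP, and the GFP-positive cells were sorted. Ovaries of many females were pooled for each sort, and many more ECs than TFCs-CpCs entered a library. The labels name several culture temperatures without assigning one to these libraries. Cell group, genotype, reporter and gate therefore cannot be told apart, and neither can fewer cells of a type and less RNA per cell in these bulk samples.

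TFCs form a stack at the tip of the germarium, and CpCs lie at its base in contact with the germline stem cells. Both are known as the source of short-range signals, among them BMP ligands that keep the stem cells undifferentiated and Hedgehog that acts on neighbouring somatic cells. ECs line the next stretch of the germarium, wrap the differentiating germline cysts, receive Hedgehog and Wnt signals and keep BMP signalling away from the cysts.

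The reads counted per 4w library were 52268136 and 37580263 in TFCs-CpCs and 16463313 and 16888122 in ECs, and between 10281 and 11959 genes had a read. Over the 9908 genes tested below, replicate libraries correlated with a Pearson's r of 0.920 in TFCs-CpCs and 0.942 in ECs, against 0.830 to 0.868 for pairs of libraries from different groups (log2 of cRPKM plus 1, across genes, which are not independent replicates). The libraries labelled TFCs-CpCs replicate 1 and 2 did not look alike in every respect. Genes of a list of late follicle cell genes, which encode eggshell and yolk proteins, took 9.69% of all counts in replicate 1 and 2.96% in replicate 2, against 1.24% and 0.948% in ECs. The chorion gene Cp15 alone stood at 73479 cRPKM in TFCs-CpCs replicate 1 and at 60.4 in replicate 2, with 566 and 217 in ECs. The unit cRPKM is a read count scaled to the mappable length of the transcript and to the mapped reads of the library, so levels can be compared between genes.

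A gene was called when its groups differed at least 2-fold with an adjusted p under 0.1 in edgeR's quasi-likelihood test, and all adjusted p-values below are from that test with Benjamini-Hochberg adjustment over all genes tested. Log2 fold changes are TFCs-CpCs over ECs, so positive values mean a higher level in TFCs-CpCs, and their standard errors (SE) are given. Of 9908 genes tested, 606 (6.12%) were called. Of these, 371 (3.74% of the genes tested) were higher in TFCs-CpCs and 235 (2.37%) were higher in ECs. The median log2 fold change of the called genes was 3.01 in the first direction and −2.84 in the second, and that of all genes tested was −0.03. None of the 606 had overlapping groups, but neither did 5542 genes in all (55.9%), 2692 (27.2%) with both TFCs-CpCs libraries above and 2850 (28.8%) with both EC libraries above.

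The number of calls rested on single libraries. Without ECs replicate 1 edgeR called no gene, with 969 genes at an unadjusted p under 0.05, and without ECs replicate 2 it called 106. In both fits the spread comes from the TFCs-CpCs libraries alone, and the lone EC library is assumed to vary like them. Replicates differed at least 2-fold at 28.8% of genes in TFCs-CpCs and at 22.2% in ECs. Without TFCs-CpCs replicate 1 there were 2285 calls, 989 higher in TFCs-CpCs and 1296 higher in ECs, and 585 of the 606 were among them. Without TFCs-CpCs replicate 2 there were 921. The 4 fits tested 571 to 590 of the 606 genes, 555 of them in all 4, and each gene kept its direction in every fit that tested it. The excess of genes higher in TFCs-CpCs also turned around with limma on log2(cRPKM + 1), which called 436 higher in TFCs-CpCs and 524 higher in ECs.

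**Figure D1:**
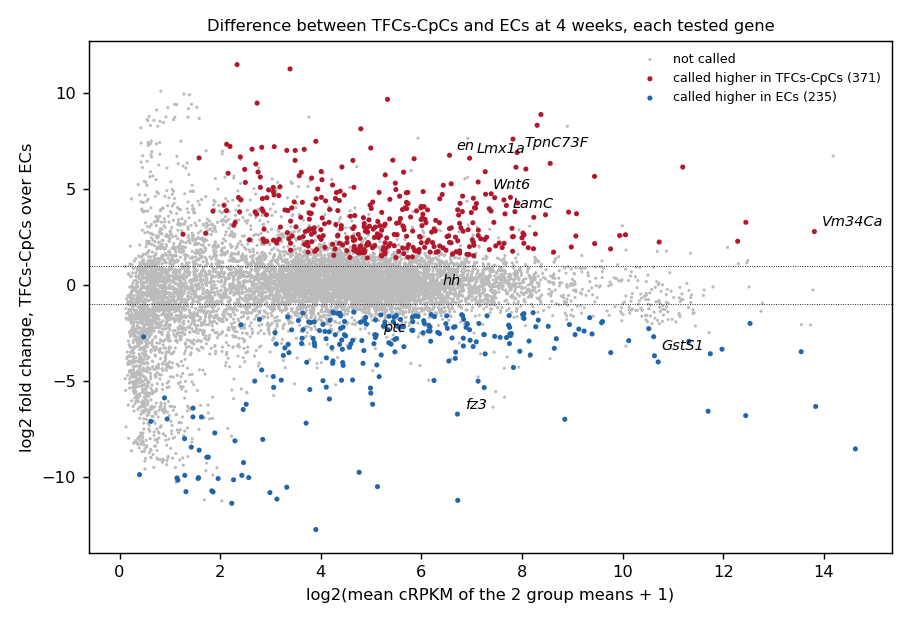
Log2 fold change of each of the 9908 tested genes (vertical axis, TFCs-CpCs over ECs) against its mean level (horizontal axis, log2 of mean cRPKM plus 1) at 4 weeks. Red points are the 371 genes called higher in TFCs-CpCs, blue points the 235 called higher in ECs and grey points genes not called, with dotted lines at a 2-fold difference. Fitted values of genes with almost no reads in one group depend on the prior count of the fit and are not bounds.

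The labels were first checked against 6 markers of TFCs-CpCs and 5 of ECs. LamC, which encodes an A-type lamin found in TFCs-CpCs, stood at 296 and 447 cRPKM in TFCs-CpCs and at 21.1 and 40.8 in ECs. Its log2 fold change was 3.70 (SE 0.51, adjusted p = 0.0237). The homeodomain gene en stood at 71.4 and 298 cRPKM in TFCs-CpCs and at 0.48 and 3.19 in ECs, a log2 fold change of 6.74 (SE 1.16, adjusted p = 0.0390). Both genes were separated in every library. Its paralogue inv, at 48.7 and 166 cRPKM against 3.69 and 0, was not called (log2 fold change 5.95, adjusted p = 0.123). The transcription factor genes bab1 (15.5 and 43.1 against 9.52 and 7.32 cRPKM, adjusted p = 0.121) and bab2 (47.1 and 238 against 27.6 and 15.5, adjusted p = 0.115) were not called either, although their groups did not overlap. The bab1 locus is also the source of the Gal4 driver of the sort.

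The Hedgehog ligand gene hh, a marker of TFCs-CpCs, did not separate the groups. It stood at 25.3 and 106 cRPKM in TFCs-CpCs and at 89.7 and 83.0 in ECs, so that the groups overlapped (log2 fold change −0.31, SE 0.62, adjusted p = 0.831). Without TFCs-CpCs replicate 1 the value was 0.37 and not called, and without TFCs-CpCs replicate 2 it was −1.59 and called higher in ECs (adjusted p = 0.0519). Both EC libraries held hh above 61.0 cRPKM, the median level of the genes called higher in ECs.

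Among the EC markers, ptc, which encodes the Hedgehog receptor and is itself a target of the pathway, stood at 6.55 and 9.48 cRPKM in TFCs-CpCs and at 63.9 and 51.8 in ECs (log2 fold change −2.74, SE 0.40, adjusted p = 0.0259). The EC sort used a ptc enhancer fragment, so this difference is tied to the gate. The next markers had no such tie. The gene fax (failed axon connections) stood at 37.5 and 41.0 cRPKM against 540 and 524 (log2 fold change −3.65, SE 0.42, adjusted p = 0.0208). The glutathione S-transferase gene GstS1 stood at 250 and 172 cRPKM against 3251 and 2663 (log2 fold change −3.69, SE 0.50, adjusted p = 0.0237). Wnt4, a ligand gene known from ECs, was not separated, with 307 and 1390 cRPKM in TFCs-CpCs and 371 and 257 in ECs (adjusted p = 0.272). In all, 2 of 6 TFC-CpC markers were called higher in TFCs-CpCs and 3 of 5 EC markers higher in ECs, and none was called the other way. Without TFCs-CpCs replicate 1 these counts were 5 and 4, and 1 EC marker, Wnt4, was then called higher in TFCs-CpCs. Without TFCs-CpCs replicate 2 they were 2 and 3, and 1 TFC-CpC marker, hh, was then called higher in ECs. Without ECs replicate 1 they were 0 and 0, and without ECs replicate 2 they were 1 and 0.

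**Figure D2:**
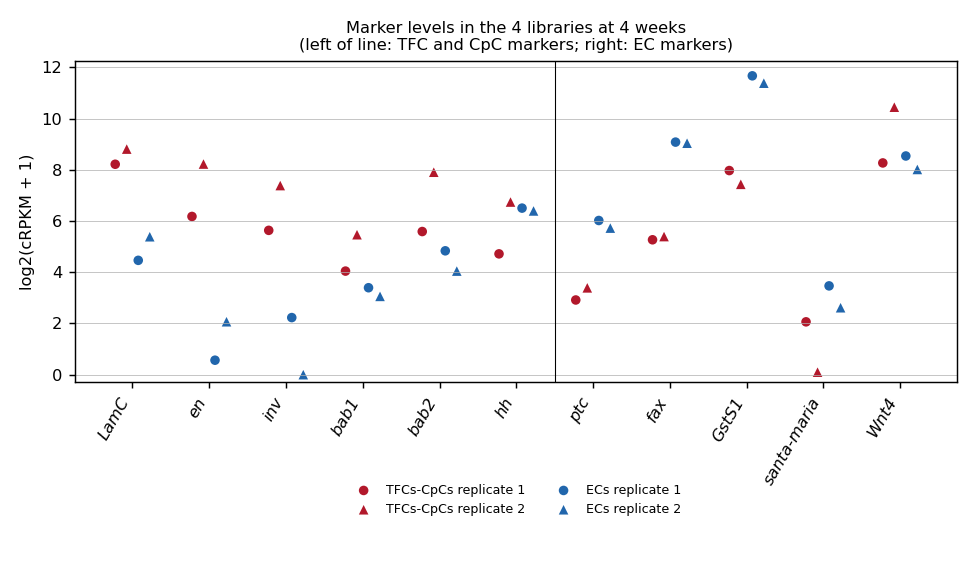
Levels of 6 TFC and CpC markers and 5 EC markers, as log2(cRPKM + 1), in each of the 4 libraries at 4 weeks. Red symbols are TFCs-CpCs and blue symbols ECs, with circles for replicate 1 and triangles for replicate 2. LamC, en, inv, bab1, bab2, ptc, fax, GstS1 and santa-maria are separated by group in every library, whereas hh and Wnt4 overlap.

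Further genes named in the genotypes were compared. The gene tau, whose name the sort reporter shares, was called higher in TFCs-CpCs, at 14.8 and 79.6 cRPKM against 0.69 and 0.43 (log2 fold change 6.48, adjusted p = 0.0261). The eye pigment transporter gene w, a common marker of transgenes, was called higher in TFCs-CpCs at 1432 and 1236 cRPKM against 449 and 343 (log2 fold change 1.87, adjusted p = 0.0835). The gene y, named in the EC genotype, stood at 0.03 and 0.70 cRPKM against 8.43 and 4.20 and was not called (log2 fold change −4.04, adjusted p = 0.212). These genes were named after their values were seen, and the part of the transgenes in them was not tested.

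Markers of other cells were not equal between the groups. For these and later lists, the shares over all genes tested were 3.74% called higher in TFCs-CpCs and 2.37% higher in ECs. Of 17 muscle genes tested, 12 were called higher in TFCs-CpCs and none higher in ECs, with a median log2 fold change of 3.40. TpnC73F, a troponin C gene (3L:17046063-17048390, dm6), stood at 414 and 529 cRPKM in TFCs-CpCs and at 4.52 and 4.08 in ECs (log2 fold change 6.89, SE 0.46, adjusted p = 0.0138). The myosin light chain gene Mlc1 stood at 375 and 682 cRPKM against 13.3 and 4.05, the tropomyosin gene Tm2 at 237 and 304 against 8.29 and 5.98, and the Z-disc gene Zasp66 at 113 and 56.9 against 3.60 and 1.12. All 4 were called and their groups lay far apart. The titin-like gene sls was not separated, at 10.2 and 28.2 against 13.5 and 27.6 cRPKM. Summed over the 19 matched genes, the muscle list reached 2035 and 2143 cRPKM in TFCs-CpCs and 147 and 163 in ECs. The count of 12 was the same without TFCs-CpCs replicate 1 and was 4 without ECs replicate 2.

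Of 16 late follicle cell genes, 4 were called higher in TFCs-CpCs and none higher in ECs, with a median log2 fold change of 1.40. The vitelline membrane gene Vm34Ca stood at 32207 and 17257 cRPKM against 4263 and 3623 (log2 fold change 2.78, SE 0.56, adjusted p = 0.0600). The yolk protein gene Yp1 stood at 13178 and 6855 cRPKM against 1412 and 877 (log2 fold change 3.26, SE 0.62, adjusted p = 0.0520), and 54.3% of its annotated exon bases overlap a further gene. The eggshell genes psd and Vml had log2 fold changes of 3.51 and 2.54. Without TFCs-CpCs replicate 1 the list gave 5 calls higher in TFCs-CpCs and 2 higher in ECs. Cp15, high only in replicate 1, was not called (adjusted p = 0.188).

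Lists for the remaining cell types held few calls. No gene of the germline (11 tested), hemocyte (6), fat body (5), neuron (6) or trachea (3) lists was called by edgeR. The germline genes vas and nos, the neuron gene VAChT and the trachea gene btl had no match by name and are missing from these lists. At an unadjusted p under 0.05 there were 1, 3, 0, 2 and 2 members of these lists, and DESeq2 called 1, 3, 1, 2 and 2. The germline list summed to 93.9 and 31.1 cRPKM in TFCs-CpCs and to 67.8 and 153 in ECs, and the neuron list to 7.12 and 10.4 against 35.5 and 25.4. Hemocyte genes summed to 182 and 75.6 against 132 and 87.8 cRPKM. The genes Hml and NimC1 were at or below 0.02 cRPKM in TFCs-CpCs and between 0.31 and 1.71 in ECs, so other members carried the sums. Of the members tested, 1 had both TFCs-CpCs libraries above both EC libraries and 4 had both EC libraries above. At 1 week the sums were 378.5 and 357.9 cRPKM in TFCs-CpCs and 108.6 and 109.7 in ECs. Fat body genes summed to at most 3.88 cRPKM and trachea genes to at most 6.31. Of 7 early follicle cell genes, the transcription factor gene cas alone was called, at 1.65 and 1.09 cRPKM in TFCs-CpCs and at 59.8 and 32.6 in ECs (log2 fold change −4.95, SE 0.55, adjusted p = 0.0201). The part of other cells in the differences below was not tested.

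The Hedgehog list had no call higher in TFCs-CpCs and 3 of 13 higher in ECs. Besides ptc these were ci, the transcription factor of the pathway, at 23.4 and 42.6 cRPKM against 181 and 148 (log2 fold change −2.21, SE 0.44, adjusted p = 0.0581), and the glypican gene dlp, at 14.6 and 22.2 against 67.9 and 55.2 (log2 fold change −1.63, SE 0.39, adjusted p = 0.0874). All EC libraries were above all TFCs-CpCs libraries for the 3 genes. The signal transducer gene smo was low and overlapping, at 3.03 and 10.9 against 8.54 and 4.47 cRPKM. The list as a whole had a median of 0.03.

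BMP pathway genes were called in both directions, 4 of 18 higher in TFCs-CpCs and 2 higher in ECs, with a list median of −0.01. The ligand gene dpp (2L:2428372-2459823) stood at 25.5 and 94.8 cRPKM in TFCs-CpCs and at 5.64 and 0.81 in ECs (log2 fold change 4.31, SE 1.04, adjusted p = 0.0889). The other ligand gene of the niche, gbb, was not called, at 88.2 and 148 against 71.8 and 59.5 cRPKM (log2 fold change 0.95, adjusted p = 0.231). The ligand gene mav lay the other way with both EC libraries above and was not called either. It stood at 13.95 and 23.1 against 39.3 and 30.7 cRPKM (log2 fold change −0.81, adjusted p = 0.305). The secreted regulator gene magu stood at 61.2 and 180 cRPKM against 11.8 and 15.5 (log2 fold change 3.24, adjusted p = 0.0449). The BMP-binding protein genes cv-2 and sog were higher by log2 fold changes of 2.52 and 2.49, the second named as the remaining call of the list. The type I receptor gene tkv was higher in ECs, at 33.1 and 47.5 cRPKM against 331 and 192 (log2 fold change −2.59, SE 0.46, adjusted p = 0.0427). The dlp gene also belongs to this list. The remaining receptor genes sax, put, wit and babo had log2 fold changes between −0.70 and 0.43 and were not called. Without ECs replicate 2 none of the 6 calls was made.

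Wnt pathway genes were called in both directions, 2 of 22 higher in TFCs-CpCs and 4 higher in ECs, with a list median of −0.11. Among the ligands, Wnt6 (2L:7333714-7352542) stood at 117 and 474 cRPKM in TFCs-CpCs and at 12.9 and 11.1 in ECs (log2 fold change 4.72, SE 0.73, adjusted p = 0.0283). Wnt2 showed the opposite pattern, at 15.7 and 38.6 against 226 and 172 cRPKM (log2 fold change −2.78, SE 0.52, adjusted p = 0.0502). Wnt5 was not separated, at 6.87 and 23.0 against 15.1 and 19.6 cRPKM.

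The receptor genes fz3 and fz were called higher in ECs. The receptor gene fz3 (X:769945-784222), known as a Wnt target in other fly tissues, stood at 1.30 and 2.32 cRPKM in TFCs-CpCs and at 235 and 178 in ECs (log2 fold change −6.73, SE 0.53, adjusted p = 0.0138). The receptor gene fz stood at 2.52 and 3.20 cRPKM against 51.3 and 53.5 (log2 fold change −4.08, SE 0.40, adjusted p = 0.0186). Their relative fz2 was not called, at 32.5 and 34.1 against 69.6 and 59.8 cRPKM (adjusted p = 0.230). The receptor genes fz4, arr and drl lay on the other side, with both TFCs-CpCs libraries above both EC libraries. Their log2 fold changes were 2.12, 1.49 and 1.64, and none was called (adjusted p = 0.144, 0.154 and 0.143). Ror overlapped between the groups. The cytoplasmic effector gene dsh was higher in TFCs-CpCs, at 14.1 and 29.2 against 1.36 and 1.00 cRPKM (log2 fold change 4.29, SE 0.62, adjusted p = 0.0259). The fourth gene called higher in ECs was Notum (log2 fold change −2.79), which encodes a secreted inhibitor of Wnt ligands.

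**Figure D3:**
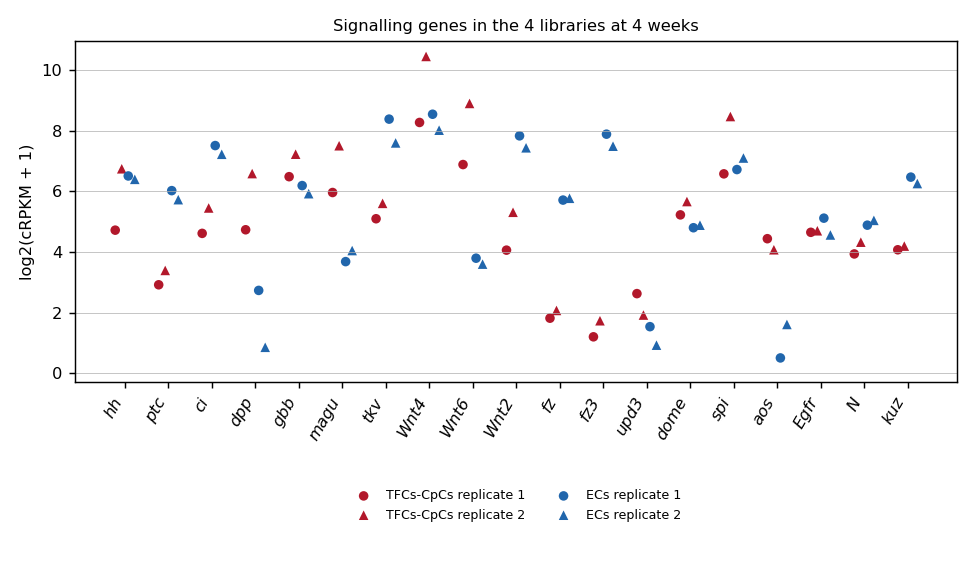
Levels of 19 genes of the Hedgehog, BMP, Wnt, JAK-STAT, EGFR and Notch pathways, as log2(cRPKM + 1), in each of the 4 libraries at 4 weeks. Red symbols are TFCs-CpCs and blue symbols ECs, with circles for replicate 1 and triangles for replicate 2. For dpp, gbb, magu, Wnt6, upd3, dome and aos both TFCs-CpCs libraries lie above both EC libraries. For ptc, ci, tkv, Wnt2, fz, fz3, N and kuz both EC libraries lie above. Of these, gbb, upd3, dome and N were not called.

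Of 13 Notch pathway genes, kuz was called, which encodes the metalloprotease that cleaves Notch. It stood at 15.8 and 17.3 cRPKM in TFCs-CpCs and at 87.3 and 75.3 in ECs (log2 fold change −2.18, SE 0.37, adjusted p = 0.0382). The receptor gene N was not called, at 14.3 and 19 against 28.5 and 31.9 cRPKM, and the ligand gene Ser was listed at no more than 0.42 cRPKM in any library. The ligand gene Dl had no match by name and is missing from the list, so the level of Notch ligands as a whole is not covered. In the EGFR pathway, 2 of 13 genes were higher in TFCs-CpCs and 1 in ECs. The inhibitor gene aos stood at 20.6 and 15.8 cRPKM against 0.42 and 2.05 (log2 fold change 4.01, SE 0.85, adjusted p = 0.0663), and rho, whose product processes EGFR ligands, at 28.5 and 145 against 8.47 and 14.5 (log2 fold change 3.01, SE 0.77, adjusted p = 0.0980). The feedback inhibitor gene kek1 was higher in ECs, at 16.7 and 33.1 against 128 and 102 cRPKM (log2 fold change −2.10, adjusted p = 0.0696). The ligand gene spi, at 94.2 and 352 against 104 and 136 cRPKM, and the receptor gene Egfr, at 24.0 and 24.9 against 33.6 and 22.6, overlapped between the groups.

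JAK-STAT genes gave a single call among 12. The kinase gene hop stood at 18.3 and 18.9 cRPKM in TFCs-CpCs and at 4.70 and 7.70 in ECs (log2 fold change 1.70, SE 0.42, adjusted p = 0.0942). The receptor gene dome was not called, at 36.3 and 49.6 against 26.8 and 28.4 cRPKM, and the ligand genes upd1, upd2 and upd3 were at 5.17 cRPKM or lower in every library. Of 11 insulin and TOR genes, 2 were higher in TFCs-CpCs. The kinase gene Akt stood at 31.6 and 84.3 cRPKM against 10.5 and 9.16 (log2 fold change 2.66, adjusted p = 0.0574), and ImpL2, which encodes a secreted binding protein of insulin-like peptides, at 256 and 495 against 57.8 and 84.9 (log2 fold change 2.5, adjusted p = 0.0502, with 61.9% of its exon bases in an overlap). None of 13 ecdysone response genes and none of 6 genes of ecdysteroid synthesis and breakdown was called by edgeR, with 1 and 2 of them at an unadjusted p under 0.05 and 1 and 3 called by DESeq2, all higher in TFCs-CpCs. The receptor genes EcR (18.6 and 24.3 against 21.2 and 25.6 cRPKM) and usp (45.8 and 72.6 against 29.0 and 42.1) had log2 fold changes of −0.01 and 0.84.

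Transcription factors of the somatic gonad gave 2 calls among 12, both higher in ECs. Besides cas this was tj, a Maf factor gene of ECs and early somatic cells, at 108 and 144 cRPKM against 711 and 501 (log2 fold change −2.16, SE 0.44, adjusted p = 0.0605). Among 8 Hox genes, abd-A alone was called, at 11.5 and 29.2 cRPKM in TFCs-CpCs and 2.97 and 0.84 in ECs (log2 fold change 3.52, adjusted p = 0.0717). The Hox median of −5.10, or −3.98 with genes at the floor of 3 counts set to their bound, came from genes with at most 1.46 cRPKM in any library.

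Of 25 septate junction genes, 3 were called higher in TFCs-CpCs and none in ECs, with a median of 0.82. The groups did not overlap for 17 of the 25 in that direction, against 27.2% of all genes tested. Tsf2 stood at 30.7 and 30.1 cRPKM against 4.11 and 2.78 (log2 fold change 3.26, adjusted p = 0.0259), the polarity gene dlg1 at 32.9 and 70.4 against 12.5 and 14.4, and udt at 38.2 and 38.3 against 8.95 and 11.8. Fas2, the fly relative of the neural cell adhesion molecule, was not called, at 234 and 645 cRPKM in TFCs-CpCs and 308 and 234 in ECs (log2 fold change 0.79, SE 0.55, adjusted p = 0.452). Without TFCs-CpCs replicate 2 its value was −0.04.

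Of 15 integrin and focal adhesion genes, 2 were called, both higher in TFCs-CpCs. The tensin gene by stood at 140 and 466 cRPKM against 23.2 and 18.3 (log2 fold change 3.96, SE 0.64, adjusted p = 0.0342) and the vinculin gene Vinc at 75.5 and 71.0 against 6.29 and 8.43 (log2 fold change 3.43, SE 0.40, adjusted p = 0.0208). The integrin beta subunit gene mys was not called, at 150 and 186 against 110 and 137 cRPKM. Of 13 basement membrane genes, the collagen IV gene vkg (149 and 121 against 35.9 and 48.6 cRPKM, log2 fold change 1.80, adjusted p = 0.0746) and the papilin gene Ppn (3.37 and 4.43 against 0.85 and 0.45, log2 fold change 2.68, adjusted p = 0.0985) were higher in TFCs-CpCs, and the list median was 1.02. The cadherin gene Cad99C and the innexin gene Inx7, with log2 fold changes of 2.25 and 1.93, were the calls of their lists of 14 and 7.

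Axon guidance genes were divided, with 1 of 17 higher in TFCs-CpCs and 2 in ECs. The semaphorin gene Sema1a stood at 1.04 and 2.69 cRPKM in TFCs-CpCs and at 34.9 and 32.8 in ECs (log2 fold change −4.08, SE 0.55, adjusted p = 0.0237), and the gene sli, for the ligand Slit, at 2.21 and 2.31 against 25.7 and 14.9 (log2 fold change −3.05, adjusted p = 0.0259). The netrin gene NetB was higher in TFCs-CpCs, at 8.32 and 12.3 against 3.07 and 1.19 cRPKM. Channels for water divided as well. The aquaporin genes Drip (78.5 and 146 against 0.07 and 2.48 cRPKM, log2 fold change 6.56) and Prip (184 and 60.7 against 6.74 and 9.27, log2 fold change 4.07) were higher in TFCs-CpCs, and their relative bib (3.21 and 0.72 against 39.6 and 28.1, log2 fold change −3.96) was higher in ECs. Of 31 ion channel genes, the potassium channel gene Shal (11.0 and 15.2 against 0.38 and 0.54 cRPKM, log2 fold change 4.94, adjusted p = 0.0259) and the chloride channel gene Best2 (log2 fold change 3.14) were called, both higher in TFCs-CpCs. Clic, at 212 and 356 against 180 and 195 cRPKM, was not called, and Pkd2 was listed at no more than 1.15 cRPKM.

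At the nuclear envelope LamC and Msp300 moved in opposite directions. Msp300, which encodes a nesprin of the complex that links nucleus and cytoskeleton, stood at 1.55 and 4.11 cRPKM in TFCs-CpCs and at 20.5 and 28.4 in ECs (log2 fold change −3.01, SE 0.55, adjusted p = 0.0475). The other 7 genes of that list of 9 were not called. None of 15 splicing regulators named in the study was called by edgeR, and their median was −0.47. At an unadjusted p under 0.05 there were 4, and DESeq2 called 1 higher in TFCs-CpCs and 4 higher in ECs. Smu1 stood at 15.4 and 12.6 cRPKM in TFCs-CpCs and at 22.6 and 19.6 in ECs (log2 fold change −0.47, SE 0.49, adjusted p = 0.640). The muscleblind gene mbl, at 47.6 and 55.3 against 140 and 128 cRPKM, missed the threshold (log2 fold change −1.26, SE 0.36, adjusted p = 0.121). That list was chosen by the study with these cells in view and is not independent evidence of a direction.

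Of 11 heat shock genes, Hsp83 (7972 and 8309 against 1851 and 1809 cRPKM, log2 fold change 2.27, adjusted p = 0.0741) and Hsc70-3 (698 and 881 against 228 and 207, log2 fold change 1.97) were higher in TFCs-CpCs, and the median was 1.10. Hsp70Bc, which has near-identical copies in the genome that make its level uncertain, stood at 1850 and 1757 against 382 and 260 cRPKM. A list of 9 genes of the response to cell dissociation and JNK signalling gave 1 call in each direction. The fly Fos gene kay was higher in TFCs-CpCs (log2 fold change 1.94) and the stress gene Gadd45 higher in ECs (log2 fold change −1.5). Of 12 glycolysis genes, Ldh (23.6 and 66.7 against 5.70 and 2.21 cRPKM, log2 fold change 3.61, adjusted p = 0.0664) and Pgi (173 and 387 against 83.8 and 63.5, log2 fold change 2.03, adjusted p = 0.0889) were called, and for 10 of the 12 both TFCs-CpCs libraries lay above both EC libraries. Over all genes tested 27.2% showed that order. Without TFCs-CpCs replicate 1 there were 5 calls higher in TFCs-CpCs and 1 higher in ECs.

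Glutathione S-transferase genes were called 2 in each direction among 31, with a median of 0.05. GstD1 (2371 and 3125 against 708 and 556 cRPKM, log2 fold change 2.23, adjusted p = 0.0524) and GstD2 (439 and 469 against 18.3 and 32.9, log2 fold change 4.26, adjusted p = 0.0201) were higher in TFCs-CpCs. GstS1, already given as a marker, and GstE2 (10.2 and 7.06 against 56.8 and 56.5, log2 fold change −2.59) were higher in ECs. None of 9 antimicrobial peptide genes tested was called by edgeR, with 2 at an unadjusted p under 0.05 and 2 called higher in TFCs-CpCs by DESeq2. The antimicrobial peptide gene Drs had no match by name and is not among the 9. Genes tested without a name could not be placed on any list. FBgn0010381 is such a gene and was called higher in TFCs-CpCs (log2 fold change 8.86, adjusted p = 0.0256). Whether any of them is a list member without a match, such as Drs, was not determined. The list therefore does not show that no antimicrobial peptide gene differed.

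Ribosomal protein genes lay on the EC side. Of 80 tested, 3 were called, all higher in ECs, and the median was −1.18. For 61 both EC libraries lay above both TFCs-CpCs libraries, an order seen for 28.8% of all genes tested. RpL38 stood at 998 and 320 cRPKM against 7039 and 7717 (log2 fold change −3.35, SE 0.65, adjusted p = 0.0546), and RpS21 and RpL29 had log2 fold changes of −2.90 and −2.70. The whole list took 7.34% and 2.93% of the counts in TFCs-CpCs and 9.96% and 12.9% in ECs. Without TFCs-CpCs replicate 1, the library of the pair with the higher share, 75 were called higher in ECs, and with DESeq2 there were 36. Of 64 nuclear genes of the respiratory chain, ND-MLRQ, ND-AGGG and ND-MWFE were called higher in ECs (log2 fold changes −2.40, −2.19 and −1.55), and the median was −0.37. The names of the 3 place them in complex I.

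**Figure D4:**
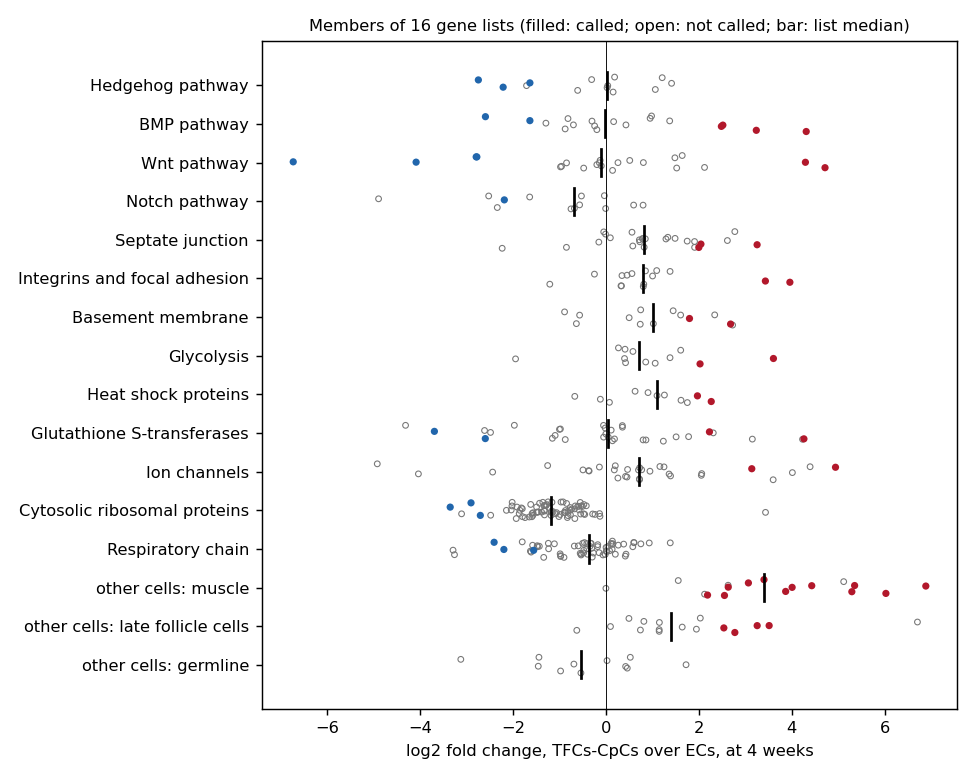
Log2 fold change at 4 weeks (horizontal axis, TFCs-CpCs over ECs) of the tested members of 16 gene lists. Filled points were called, red higher in TFCs-CpCs and blue higher in ECs, open points were not called, and black bars are list medians. The muscle list lies farthest to the TFCs-CpCs side with a median of 3.40, and the ribosomal protein list on the EC side with a median of −1.18.

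Among called genes of at least 10 cRPKM, the 8 largest differences in favour of TFCs-CpCs were found for genes at no more than 4.08 cRPKM in either EC library. CG34283 stood at 4.91 and 33.0 cRPKM in TFCs-CpCs and at 0 in both EC libraries, at least 57.9-fold higher by the group mean against a floor of 3 counts per EC library, and at least 15.5-fold by the lower TFCs-CpCs library alone. On the same basis the E3 ubiquitin ligase gene sordd2, at 72.8 and 83.4 cRPKM against 0 and 0.18, was at least 153-fold higher, and CG2145, at 5.40 and 17.2 against 0 and 0.03, at least 134-fold, or 65.5-fold by the lower library. The gene listed as FBgn0010381, which was not matched to a name, stood at 432 and 888 cRPKM against 0 and 3.0. CG14309 stood at 66.3 and 1185 cRPKM against 0.11 and 4.08, so that its TFCs-CpCs replicates lay far apart. The zinc finger factor gene Kah (31.3 and 75.4 against 0.04 and 0.36 cRPKM), CG14401 (277 and 617 against 2.85 and 2.13) and CG45078 (34.5 and 21.0 against 0.33 and 0, with 45.6% of exon bases in an overlap) completed the first 8. By level, Vm34Ca, Yp1, Hsp83, the vitelline membrane gene Vm32E (7487 and 1722 against 14.1 and 131 cRPKM), GstD1, lost (888 and 2432 against 330 and 270), Mipp1 (804 and 1912 against 21.3 and 36.9) and Hsp70Bc were the highest. Mipp1 encodes an inositol polyphosphate phosphatase, and its log2 fold change was 5.64 (SE 0.66, adjusted p = 0.0208).

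In favour of ECs, the odorant-binding protein gene Obp19d stood at 0 in both TFCs-CpCs libraries and at 39.1 and 16.7 cRPKM in ECs, at least 397-fold higher, or 207-fold by the lower EC library. The gene Nazo (13.2 and 17.8 cRPKM in ECs) was likewise at least 132-fold higher, the chaperonin gene Hsp60C (14.7 and 13.0) at least 391-fold and the zinc finger gene drm (26.4 and 9.58) at least 556-fold, or 259-fold by the lower library. The neighbouring cytochrome P450 genes Cyp4p2 (0 and 0.09 against 67.7 and 67.9 cRPKM) and Cyp4p1 (0 and 0.12 against 56.6 and 47.8) also belonged here. They are related copies, so the share of each is uncertain. By level the EC side was led by ribosomal RNA entries. 28SrRNA-Psi:CR45859 stood at 182 and 64.2 cRPKM in TFCs-CpCs and at 46062 and 54625 in ECs, and 28SrRNA-Psi:CR40596, 18SrRNA-Psi:CR41602, 28SrRNA-Psi:CR45851, 28SrRNA-Psi:CR45855, 28SrRNA-Psi:CR45853 and pre-rRNA:CR45856 were called in the same direction. These are near-identical copies whose reads cannot be assigned to one of them. All ribosomal RNA entries took 0.250% and 0.107% of the counts in TFCs-CpCs and 3.05% and 3.70% in ECs, although the labels describe polyA RNA. The mitochondrial gene mt:ATPase8 (2835 and 1554 against 10733 and 8524 cRPKM, log2 fold change −2.01, adjusted p = 0.0835) and RpL38 were the remaining genes of the 8 highest.

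The 1 week (1w) libraries, 2 of each cell group with the same sorts and genotypes, give separate samples in which to see the same contrast. There, 3172 of 10173 genes tested (31.2%) were called. Of the 599 genes called at 4w and tested at both ages, 410 were called at 1w in the same direction, 68.4% of the 4w calls and 14.7% of the 2795 calls at 1w among genes tested at both ages. They were 235 of 369 genes higher in TFCs-CpCs and 175 of 230 higher in ECs. The sign was the same at both ages for 539 of the 599 (90.0%), against 69.7% of the genes not called at 4w. LamC (log2 fold change 2.71 at 1w), en (4.76), ptc (−2.18), Wnt6 (2.60), fz3 (−6.03), fz (−4.34), tkv (−1.97), dpp (5.22), tj (−3.17), by (5.20), Vinc (3.99) and Sema1a (−3.47) were called at both ages. At 1w hh was called higher in ECs (log2 fold change −3.64). All 17 muscle genes tested were called higher in TFCs-CpCs at 1w with a median of 6.81, and the muscle list then summed to 63675 and 60708 cRPKM in TFCs-CpCs and to 1439 and 506 in ECs. None of the late follicle cell genes was called higher in TFCs-CpCs at 1w, and 3 were higher in ECs. Among ribosomal protein genes, 64 were called higher in ECs at 1w.

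**Figure D5:**
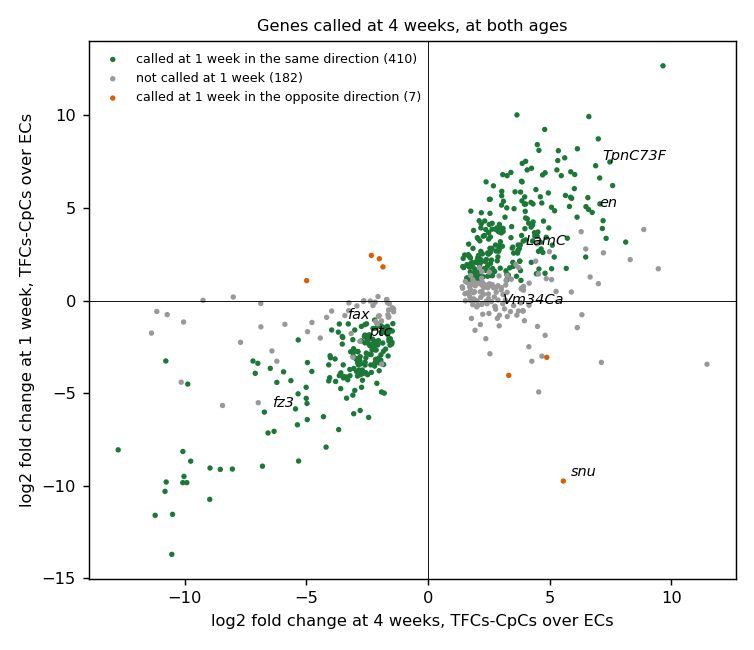
Log2 fold change at 1 week (vertical axis) against that at 4 weeks (horizontal axis), both TFCs-CpCs over ECs, for the 599 genes called at 4 weeks and tested at both ages. Green points (410) were called at 1 week in the same direction, grey points (182) were not called and orange points (7) were called in the opposite direction.

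The difference between the ages was tested as an interaction in a fit of all 8 libraries. Of 11452 genes, 283 (2.47%) passed, 110 (0.961%) with a larger and 173 (1.51%) with a smaller log2 fold change at 4w than at 1w, and 79 of them were also called at 4w. Leaving out 1 of the 8 libraries gave 69 to 489. The ABC transporter gene snu (2.23 and 49.0 against 0.41 and 0.74 cRPKM at 4w) went from a log2 fold change of −9.75 at 1w to 5.56 at 4w, and 1 TFCs-CpCs library carried most of its level at 4w. The EC marker fax went from −1.26 to −3.65, Tsf2 from −0.86 to 3.26, ImpL2 from −0.70 to 2.5 and NetB from 6.41 to 2.38. GstD2 went from −3.28 at 1w, not called, to 4.26, and its 1w value rested on 1 EC library (24.7 and 7.89 cRPKM in TFCs-CpCs against 15.7 and 379 in ECs). The 1w differences of Tsf2 and ImpL2 were not called either. For the ligand and receptor genes hh, Egfr, mav, grk and fz2 the interaction passed although none of them was called at 4w.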

How the data were processed

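Gene-level values of 8 libraries of sorted cells were used, the 4 at 4w for the comparison and the 4 at 1w for the same contrast at the other age. The 4 libraries of the RNAi experiment of the series were not used here. The authors made strand-specific libraries from PCR-amplified cDNA (Pico Profiling) and deposited an unnormalised read count for each gene of a library, on the build dm6. The methods name vast-tools for splicing, while the program behind the gene counts and its use of strand are not given in the sources used here. The authors also deposited cRPKM, an RPKM corrected for the mappable length of the transcript. Libraries made by amplification from few cells have replicate spread and missing genes that the read depth does not show. Without use of the strand, reads of overlapping genes could not be told apart.

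Of 14489 genes listed, 13726 had values, and 13506 were matched to a name and to the release 6 annotation. A gene was tested if 2 or more of the 4 libraries held 10 or more reads of it, with edgeR 4.0.16 (TMM, quasi-likelihood F test, Benjamini-Hochberg adjustment, R 4.3.3), called at 2-fold and an adjusted p under 0.1. The study gives the 2-fold limit with false discovery rates of 0.1 and of 0.05 in different places, and 0.05 was an alternative. Interactions were fitted over 8 libraries. A group with at most 3 counts in each library was treated as at the floor, and its fold given as a bound on the ratio of group means. Depth ranged from 12078227 to 52487930 counts per library, and precision is that of 2 libraries per group; p-values measure the spread between these pooled sorts. Simulated data for this comparison (9908 genes, 5 draws) held 500 genes changed by 1.5 on the log2 scale, 500 changed by 3 and 48540 unchanged. The procedure called 8.40% of the first (42 genes), 61.2% of the second (306) and 0.0927% of the unchanged ones (45). Few genes were changed in these draws, and the share detected depends on that setting. Alternatives were DESeq2 1.42.0, limma 3.58.1 on log2(cRPKM + 1) and log2(cRPKM + 0.1), other size factors, other filters, a stricter threshold, all 8 libraries in 1 fit, a replicate block and leaving out each library.

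Genes named are the markers, in each direction the 8 called genes with the largest difference at a mean of at least 10 cRPKM and the 8 with the highest level, up to 4 called members of each of 38 gene lists with ligands and receptors of signalling lists, genes named by the study and the 6 called genes with the largest interactions. Others are named as chosen after their values were seen, and markers not called by the rule are given for the label check, as are members of lists set beside a called one. The comparison, the lists and the tests were chosen with earlier results of these data known. Names on the lists without a match, among them Dl, wg, InR and Drs, are missing from the lists. Genes listed under an identifier without a name went through the same tests. Whether they include such list members was not determined.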

Additional observations from a re-analysis of the deposited data

Results flagged for a closer look

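The difference between TFCs-CpCs and ECs differed between 4w and 1w, by the interaction test of edgeR over 8 libraries (adjusted p under 0.1), for 23 of the 143 named genes, against 283 of all 11452 genes tested (2.47%). Of the 23, snu, CG44251, CG44250, Hesr, Vm32E and GstD2 were named for having the largest interactions, so the count is in part set by the choice, and 17 of the other 137 named genes passed. That second count is not free of the choice either. Of the 143 named genes 97 were called at 4w, and the same 4w libraries enter the interaction. Values are the log2 fold change at 4w less that at 1w, positive where TFCs-CpCs gained relative to ECs with age. Among genes called at 4w, the value was 15.3 for snu, 13.8 for CG44251, 10.3 for CG44250, 7.88 for Hesr, 7.56 for Vm32E, 7.49 for GstD2, 4.88 for Kah, 4.05 for Tsf2, 3.69 for psd, 3.13 for ImpL2 and 2.28 for kek1. It was −4.12 for NetB, −3.60 for Ppn, −3.07 for Prip and −2.47 for fax. CG44250 and CG44251 lie at one place and share exon bases, so part of their reads cannot be assigned to one of them. For snu (2.23 and 49.0 cRPKM), CG44250 (112 and 10.5) and CG44251 (18.3 and 4.21) the 2 TFCs-CpCs libraries at 4w were far apart. For GstD2 the ECs at 1w were far apart (15.7 and 379 cRPKM). Both TFCs-CpCs libraries at 1w were at 0 for snu and CG44251, so their fitted values depend on the prior count and are no bounds. Both vitelline membrane or eggshell genes, Vm32E and psd, move with the late follicle cell list, which summed to 149368 and 36020 cRPKM in TFCs-CpCs at 4w and to 14835 and 4214 at 1w. Without Cp15 the sums at 4w were 75889 and 35959. Their part was not tested.

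Among genes not called at 4w, the value was 3.26 for hh and 2.75 for Egfr, and −5.60 for Nlg1, −3.69 for Actn, −3.09 for mav, −2.43 for grk, −2.34 for fz2 and −2.30 for mbl. The alpha-actinin gene Actn was called higher in TFCs-CpCs at 1w (log2 fold change 4.22), where the muscle list stood at 63675 and 60708 cRPKM, and was not called at 4w (0.60, 67.0 and 62.9 against 60.3 and 32.5 cRPKM). The part of the muscle genes in it was not tested.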

How the results depend on the processing

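At 4w the total of called genes, 606 (371 higher in TFCs-CpCs and 235 higher in ECs), was 1905 (1008 and 897) with DESeq2, 1287 (862 and 425) without the filter, 1247 (805 and 442) with 8 libraries in 1 fit, 960 (436 and 524) and 1053 (456 and 597) with limma on log2(cRPKM + 1) and log2(cRPKM + 0.1), 848 (485 and 363) at a mean of at least 5 cRPKM, 616 (364 and 252) with median-of-ratios size factors and 224 (133 and 91) at an adjusted p under 0.05. DESeq2 without the filter, added after seeing the data, gave 2185 (1107 and 1078). DESeq2 called all 606, and 450 of them were called in all 8 alternatives that kept every library and the threshold. Leaving out 1 library gave 0 to 2285 calls, 0 to 989 higher in TFCs-CpCs and 0 to 1296 higher in ECs. The median of all genes was −0.16 without the filter, −0.13 and −0.17 with limma at the pseudocounts 1 and 0.1 and −0.03 in the fit reported. At 1w 3172 calls became 1987 at an adjusted p under 0.05 and 1944 to 3150 without 1 library. The 283 interactions became 908 with DESeq2, 566 without the filter, 130 at an adjusted p under 0.05 and 69 to 489 without 1 library. The 410 calls shared by both ages became 1076, 786 and 172 in the first 3 of these settings.

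Same-numbered libraries of the 2 cell groups, which are different genotypes, deviated at 4w with a correlation of −0.07, and a replicate block gave 690 calls (440 and 250) at 4w, 2658 at 1w and 292 interactions. Females of both ages came from 1 batch in each biological replicate by the study's account, which does not say whether the numbers in the labels mark these batches. Between the ages, same-numbered libraries deviated with a correlation of −0.04 in TFCs-CpCs and −0.03 in ECs. A replicate block within each cell group, added after seeing the data, gave 279 interactions, 223 of them among the 283, and of the 23 named ones CG44251 alone was no longer called (adjusted p = 0.177).

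Of 97 named called genes none changed sign in any alternative that tested it, and 93 stayed called with the block, 86 and 85 with limma and 44 at an adjusted p under 0.05. Signs turned only among genes not called. With limma on log2(cRPKM + 1) and log2(cRPKM + 0.1), the smo log2 fold change at 4w was −0.0615 and −0.10 and that of Ilp8 −0.50 and −0.71, and Pkd2 was −0.22 with the second. With the replicate block, upd2 was −0.36, Ilp8 −0.57 and Pkd2 −1.01. Without the filter Egfr was 0.0178 and EcR 0.0862, and EcR was 0.0548 with 8 libraries. Leaving out 1 library gave hh −1.59 to 0.37, smo −0.92 to 0.82, sax −0.67 to 0.11, Wnt5 −1.16 to 0.48, spi −0.17 to 1.63, Krn −0.22 to 0.82, vn −1.54 to 0.56, grk −0.81 to 0.0406, Egfr −0.39 to 0.22, EcR −0.16 to 0.13, Ilp6 −1.19 to 0.18, Ilp8 −4.12 to 2.62, Fas2 −0.0353 to 1.32 and Pkd2 −4.37 to 1.72. The cause of these shifts was not tested. In the simulated data, where few genes were changed, 8.40% of differences of 1.5 on the log2 scale and 61.2% of those of 3 were called. A gene not called with 2 libraries per group is therefore not shown to be equal.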

Other observations

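Groups below were put together after their values were seen and are given as descriptions. Of 11 genes of the E(spl) complex, which are Notch targets in many fly tissues, 9 were tested, and both EC libraries lay above both TFCs-CpCs libraries for 8 of them at 4w. Over all genes tested 28.8% showed that order. E(spl)m3-HLH (175 and 188 against 1155 and 1161 cRPKM, log2 fold change −2.56) and E(spl)m2-BFM (45.1 and 46.8 against 425 and 236, log2 fold change −2.73) were called. The pseudokinase receptor genes otk (5.74 and 6.22 against 56.9 and 39.8 cRPKM, log2 fold change −2.90) and otk2 (3.93 and 6.70 against 45.4 and 39.3, log2 fold change −2.89) were also called higher in ECs, at 4w and at 1w. On the TFCs-CpCs side, the homeodomain factor gene Lmx1a was called at 110 and 378 against 1.94 and 3.45 cRPKM (log2 fold change 6.59) and the forkhead factor gene croc at 71.3 and 318 against 24.7 and 8.73 (log2 fold change 3.63).

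Among 9 genes of the circadian clock, vri (125 and 347 against 48.2 and 36.7 cRPKM, log2 fold change 2.57), cry (43.9 and 75.8 against 15 and 6.70, log2 fold change 2.57), per (22.6 and 65.8 against 7.16 and 10.5, log2 fold change 2.42) and dco (log2 fold change 2.35) were called higher in TFCs-CpCs, and tim was not separated (53.1 and 144 against 110 and 75.8). Pdp1 (47.3 and 54.5 against 98.1 and 58.8) and cwo (13.0 and 14.8 against 23.8 and 33.4) had both EC libraries above and were not called. At 1w 3 of the 9 were called higher in TFCs-CpCs and 3 higher in ECs.

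Mitochondrial genes lay on the EC side. Of 13 protein-coding genes of the mitochondrial genome, mt:ND3 (197 and 163 against 3092 and 3216 cRPKM, log2 fold change −4.01), mt:ND6, mt:ATPase8 and mt:ND2 were called higher in ECs, and the 13 together took 4.14% and 2.33% of the counts in TFCs-CpCs and 8.79% and 7.24% in ECs. The genes dsh, hop and dlg1, called higher in TFCs-CpCs at both ages, are neighbours on the X chromosome between 11355881 and 11409776, while Tim8, which lies between hop and dlg1, had a log2 fold change of −0.96 at 4w and was not called.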
